A study of Mus musculus with 30 samples.

Results

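Genes of the complement system were followed in the denervated cervical spinal cord of mice after a cortical stroke. The group was chosen by name for the role of its genes, with earlier results of these data known. It held 8 genes: the C1q chains C1qa, C1qb and C1qc, the components C3 and C4b, the inhibitor Serping1 and the receptors C3ar1 and C5ar1. Of these, 7 were among the 16995 genes with values, and C5ar1 was not analysed here. All animals were adult female C57BL/6 mice (C57BL/6J in the study's methods) without any genetic change. Stroke animals received a unilateral photothrombotic lesion of the right sensorimotor cortex and were taken at 4, 7, 14, 28 or 42 days post injury (dpi), and the sham animals (labelled Ctrl) had the operation but no illumination of the skull. RNA came from the intermediate laminae of C5/C6 on the side that had lost its corticospinal input, cut out crudely with blades after perfusion, with 1 mouse per library. Values were used for 29 of 30 labelled animals, 4 at 4 dpi and 5 in every other group, because animal A9-3 (4 dpi) has no column of values. The study's methods state that a 4 dpi sample was left out as an outlier of the differential expression testing, without naming it, so the 4 dpi group was trimmed by the authors after its values were seen. A value is what the authors describe as normalized CPM (counts scaled by library), rounded to 0.1. The totals differ between animals, up to 2256910 in 1 animal, which values that were plain CPM could not reach, so CPM below stands for the deposited value and not for a share of reads.

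Complement is a cascade of proteins that mark targets for removal. C1q recognises a target and starts the classical pathway, in which C4 and then C3 are cleaved and their fragments are deposited, and phagocytes read these marks through receptors. In the healthy central nervous system C1q is made mainly by microglia, C4 and C3 also by astrocytes and neurons, and C1q and C3 are known for tagging synapses that microglia then take up.

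The C1q genes lie next to each other on the minus strand of chromosome 4 (mm10), with C1qb at chr4:136880129-136886187, C1qc at chr4:136889804-136893065 and C1qa at chr4:136895917-136898803. RefSeq (GRCm38.p6) promoter sequence was at hand for 4 of the 7 genes, C1qb, C1qc, C3 and C3ar1. The stretches of C1qb and C1qc that lie upstream of both the RefSeq and the GENCODE M21 gene start are shown because these genes moved together in the animals. Capitals mark a match to the PU.1 word.
C1qb, chr4:136886201-136886450, minus strand: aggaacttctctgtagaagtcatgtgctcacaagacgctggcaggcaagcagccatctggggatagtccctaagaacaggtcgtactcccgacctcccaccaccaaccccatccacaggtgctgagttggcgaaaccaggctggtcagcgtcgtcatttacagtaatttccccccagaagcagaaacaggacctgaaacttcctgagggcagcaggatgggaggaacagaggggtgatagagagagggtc
C1qc, chr4:136893066-136893164, minus strand: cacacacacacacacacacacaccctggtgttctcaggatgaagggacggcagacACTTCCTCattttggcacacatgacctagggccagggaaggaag

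The TATA, PU.1, GAS and C/EBP words were searched on either strand in windows of 250 bases before to 50 bases after the RefSeq start. GAGGAAGT, a word bound by the myeloid factor PU.1, was found in C1qc, on the reverse strand and starting at position -195 from the RefSeq start, and in 3.2% of all 32851 promoters. TATAAA was found in C3ar1 at -235 and in C3 at 14, and in 13.6% of all promoters. TTCNNNGAA (GAS, bound by STAT factors, 8.3% of promoters) and TTGCNNNAA (C/EBP, 9.56% of promoters) were found in none of the 4 genes, and C1qb held none of the words. These are matches of letters and say nothing of binding.

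Levels of different genes were compared per kilobase of the longest coding transcript, in sham animals. C1qa was the highest at 9.96 ± 1.06 CPM per kilobase (SD, n = 5), followed by C1qb at 7.90 ± 1.56 and C1qc at 6.92 ± 1.33, and these neighbours overlapped. C4b followed at 1.57 ± 0.884, Serping1 at 0.882 ± 0.136 and C3 at 0.689 ± 0.665, again with overlapping ranges. C3ar1 was the lowest at 0.190 ± 0.0345, below the lowest sham value of C3, 0.292. All other values are CPM per gene.

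The values summed to between 714597 and 2256910 per animal, and no read totals were used, so the depth is unknown and precision is given by the spread between animals. Ribosomal RNA left after depletion differed between groups, with a median of 34962 for Rn18s-rs5 in sham animals and of 24929, 56408, 95114, 323193 and 184745 on days 4, 7, 14, 28 and 42. At 42 dpi every animal (78737 to 457302) lay above the highest sham animal (52929), and at 14 dpi the highest animal reached 817780. All markers of neurons (7), oligodendrocytes (6), astrocytes (8), microglia (12) and endothelium (5) were measured, with a summed neuronal level of 1905 to 2904 across animals. Of 9 markers of blood monocytes, neutrophils and lymphocytes, 3 were measured, with a summed level between 1 and 3.6. In bulk tissue, fewer cells of a type and less RNA per cell cannot be told apart.

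The first question was which of these genes differed from sham at each time point. Each time point was compared with the same 5 sham animals in 1 limma fit of log2(value + 0.5) over the 29 animals, and log2 fold changes below are on this scale, which understates the change of low genes. A gene was called when its Benjamini-Hochberg adjusted p, over 16995 genes, was under 0.05 and its fold change was above 1.5 (0.585 on the log2 scale). Adjustment was made within each comparison, so the same unadjusted p was raised less where more genes moved. In either direction 789 genes were called at 28 dpi and 738 for the step from 4 to 28 dpi. Against these stood 16 at 4 dpi and 4 at 42 dpi. At 4 dpi, C1qc rose and was 1 of 7 members called higher, where 0.0824% of all genes were. At 28 dpi, C4b rose and was 1 of 7, where 4.15% of all genes were. At 7 and 14 dpi and over all stroke animals, no member and 0% of genes were called higher, and at 42 dpi no member was, where 0.0118% of genes were. No member was called lower against sham.

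At an unadjusted limma p under 0.05, more members were higher than sham. At 4 dpi these were 5 of 7 (C1qa, C1qb, C1qc, C4b and C3ar1), against 2.78% of all genes. At 7 dpi they were 3 of 7 (C1qc, C4b and Serping1), against 2.22%, and at 14 dpi 5 of 7 (the C1q genes, C4b and Serping1), against 6.25%. At 28 and 42 dpi they were 2 of 7 each, C4b and C3ar1, against 18.3% and 8.4%. Over all stroke animals they were 5 of 7 (the C1q genes, C4b and C3ar1), against 4.55%. The share of members at 28 dpi was therefore nearest to that of all genes. Because members were chosen with earlier results of these data known, their shares are a description and no test against all genes.

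The median log2 fold change over the 7 members was highest at 4 dpi, at 0.92. It was 0.35 at 7 dpi, then 0.50 (14 dpi), 0.17 (28 dpi) and 0.35 (42 dpi), where that of all genes lay between -0.0085 and 0.0057. All 7 were higher than sham at 7, 14 and 42 dpi. At 4 and 28 dpi 6 of 7 were, with C3 (-0.02) and Serping1 (-0.02) as the exceptions. The separation of the animals was also counted without a model. At 4 dpi every stroke animal lay above every sham animal for 3 of 7 members (C1qa, C1qb and C3ar1), against 1.09% of all genes. At 14 dpi this held for C1qa and C1qc, 2 of 7 against 1.11%, and at 42 dpi for C4b and C3ar1, 2 of 7 against 2.21%. At 7 dpi (0.388% of genes) and 28 dpi (6.15% of genes) it held for no member. Rn18s-rs5 also lay above the whole sham range at 42 dpi, and its part in the separation was not tested.

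**Figure D1:**
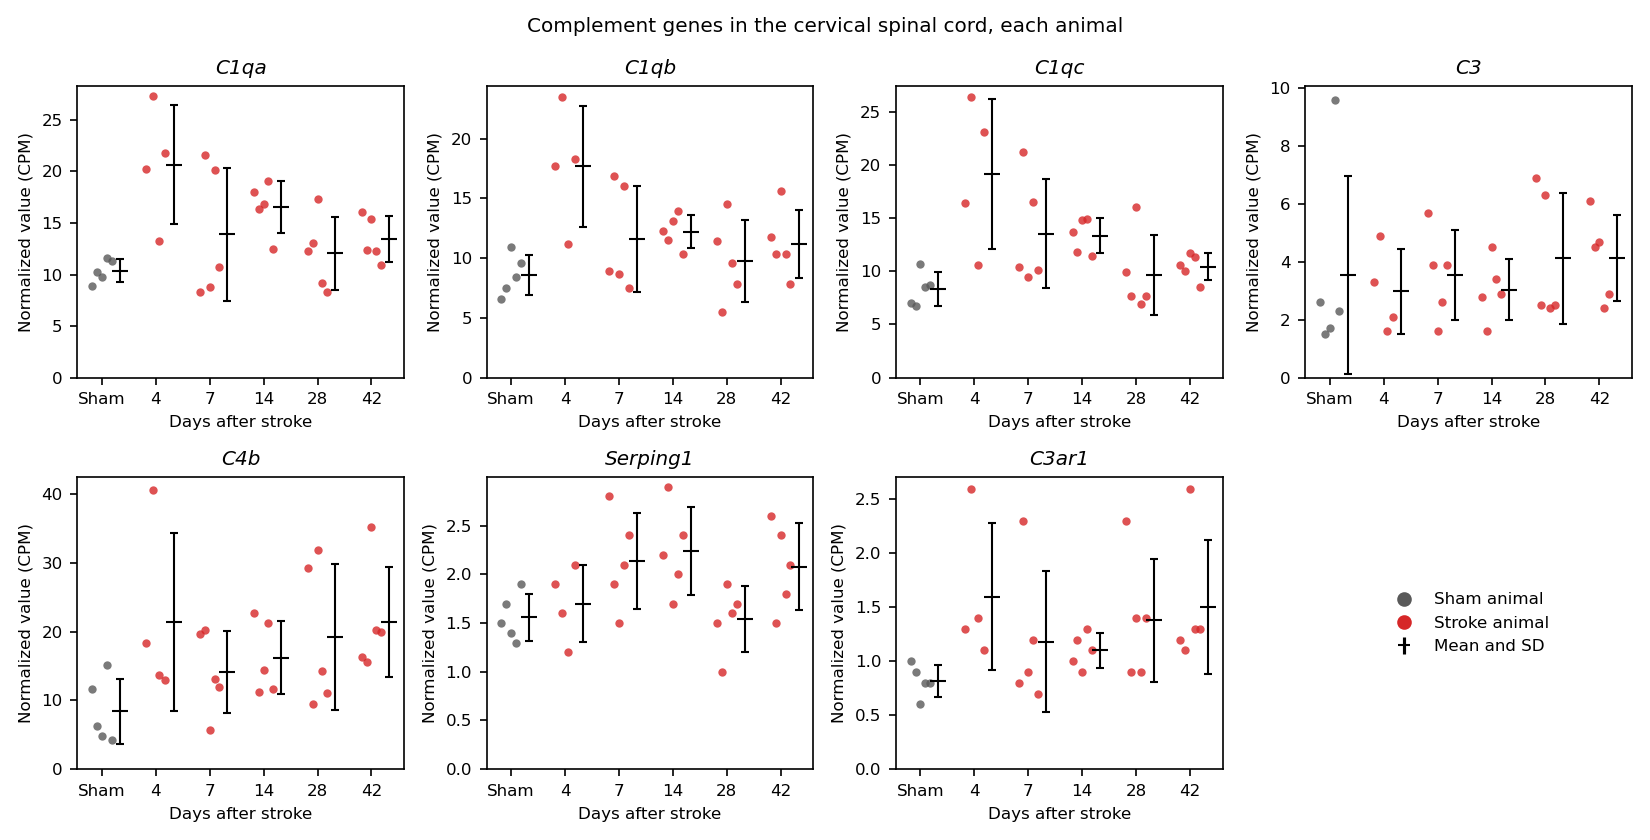
Normalized value (CPM, linear axis from 0) of the 7 complement genes in each animal of the sham group and at 4, 7, 14, 28 and 42 days after stroke, with mean and SD (n = 4 at 4 dpi, n = 5 otherwise). The C1q genes were highest at 4 dpi, C4b stayed above the sham mean at all times, and 1 sham animal stands apart for C3 at 9.6.

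C1qa, C1qb and C1qc encode the A, B and C chains of C1q, which are assembled together into the recognition unit. C1qa was 8.9, 10.2, 9.8, 11.6 and 11.3 in the sham animals A11-1, A11-4, A12-1, A12-2 and A12-3, a mean of 10.4 ± 1.11 (SD, n = 5). At 4 dpi it was 20.2 in A10-1, 27.3 in A10-4, 13.3 in A9-2 and 21.8 in A9-4, all above the highest sham animal. The log2 fold change was 0.92 (SE 0.228) and did not pass the threshold (limma, Benjamini-Hochberg adjusted p = 0.121). C1qb was 6.6, 7.5, 10.9, 8.4 and 9.6 in the same sham animals and 17.7, 23.5, 11.2 and 18.3 at 4 dpi, again without overlap, though A9-2 (11.2) was close to the highest sham animal (10.9). Its log2 fold change was 0.97 (SE 0.236, limma, adjusted p = 0.115).

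C1qc was 7.0, 6.7, 10.7, 8.5 and 8.7 in the sham animals and 16.4, 26.4, 10.6 and 23.1 at 4 dpi. A9-2 at 10.6 lay just under the highest sham animal, and the other 3 stroke animals lay well above it. The log2 fold change was 1.09 (SE 0.230), a rise of 2.13-fold (limma, Benjamini-Hochberg adjusted p = 0.0478). The call was near the threshold: it held in 12 of 29 fits that each left out 1 animal and in 6 of 10 fits with other settings. Without A9-2 all 3 C1q genes were called, and without any 1 of the other 4 dpi animals none was.

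At 7 dpi the animals split in the same way for all C1q genes. C1qa was 21.6 in A7-3 and 20.1 in A8-1, but 8.3, 8.8 and 10.7 in A7-2, A7-4 and A8-3, inside or below the sham range. C1qb was 16.9 and 16.0 in A7-3 and A8-1 and between 7.5 and 8.9 in the other 3, and C1qc was 21.2 and 16.5 against 9.5 to 10.4. Log2 fold changes at 7 dpi were 0.30 (SE 0.215) for C1qa, 0.35 (SE 0.223) for C1qb and 0.62 (SE 0.216) for C1qc, with limma adjusted p between 0.791 and 0.884.

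At 14 dpi the animals were more alike. C1qa was 18, 16.4, 16.8, 19.1 and 12.5 in A5-1, A5-3, A5-4, A6-2 and A6-3, all above the sham animals, and C1qc was 13.7, 11.8, 14.8, 14.9 and 11.4, also all above. C1qb was 12.3, 11.5, 13.1, 13.9 and 10.3, of which A6-3 lay within the sham range. As log2 fold changes these were 0.64 (C1qa), 0.50 (C1qb) and 0.66 (C1qc), none of which passed (limma adjusted p between 0.381 and 0.409), although their 95% intervals, from 0.20 to 1.08, from 0.04 to 0.95 and from 0.22 to 1.10, lay above 0.

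At 28 dpi the C1q genes overlapped with the sham values, with 3, 2 and 1 of 5 animals above all sham animals for C1qa, C1qb and C1qc. C1qa was 12.3, 13.1, 17.3, 9.2 and 8.3 in A3-1, A3-3, A4-1, A4-3 and A4-4, C1qb was 11.4, 5.5, 14.5, 9.6 and 7.8, and C1qc was 9.9, 7.7, 16.0, 6.9 and 7.7. A4-1 was the highest animal for all of them. The log2 fold changes were 0.17, 0.13 and 0.15 (95% intervals from -0.27 to 0.61, from -0.33 to 0.58 and from -0.29 to 0.60). With Rn18s-rs5, the 18S ribosomal RNA, as a covariate they were larger, at 0.42, 0.48 and 0.41, and did not pass (limma adjusted p = 0.335, 0.270 and 0.352). In fits that left out 1 animal they went as low as 0.03, -0.03 and -0.04, so the direction of C1qb and C1qc was not firm. At 42 dpi C1qa ranged from 10.9 to 16.1 with a median of 12.4, C1qb from 7.8 to 15.6 with a median of 10.3, and C1qc from 8.5 to 11.7 with a median of 10.6, and all overlapped with sham. The log2 fold changes at 42 dpi were 0.35, 0.34 and 0.32 (limma adjusted p between 0.477 and 0.525). With the covariate they were 0.57, 0.65 and 0.54 and did not pass (limma adjusted p = 0.46, 0.38 and 0.489). Without A1-3 that of C1qb was 0.22.

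The step between time points was tested directly in the same fit. More genes moved from 4 to 28 dpi than at 4 dpi against sham, so the adjusted p values of these comparisons are not on the same footing. From 4 to 28 dpi C1qa fell by 0.76 on the log2 scale (SE 0.228, limma, adjusted p = 0.0233), C1qb fell by 0.85 (SE 0.236, adjusted p = 0.0165) and C1qc fell by 0.94 (SE 0.230, adjusted p = 0.00958). These were 3 of 7 members called lower, against 1.45% of all genes, and the same 3 of 7 at an unadjusted p under 0.05, against 18.9%. C1qc was called in all 29 fits that left out 1 animal, C1qb in 25 and C1qa in 24, and without A10-1, A10-4 or A9-4 C1qc alone was called. C4b differed by -0.16 (95% interval from -0.96 to 0.63), C3ar1 by -0.16, Serping1 by -0.11 and C3 by 0.37, and none of these passed. With Rn18s-rs5 as a covariate the steps of the C1q genes were -0.49, -0.47 and -0.67 and no longer passed (limma adjusted p = 0.353, 0.365 and 0.237), and those of C4b and C3ar1 turned positive (0.41 and 0.04). Ribosomal RNA also moved from 4 to 28 dpi, and its part in the steps was not tested further. Cell type markers moved over the same step, where 18.9% of all genes were lower at an unadjusted p under 0.05 and 1.45% were called lower. Of 12 microglia markers 10 were lower, 5 of them at that p and 2 called. Of 8 astrocyte markers 5 were lower, 4 of them at that p and 1 called. Endothelium went mostly the other way, with 4 of 5 markers higher, 2 of them at that p, 1 called lower and a median log2 difference of 0.20. Fcrls of microglia fell by 1.22 (limma adjusted p = 0.00236), Gfap of astrocytes fell by 1.04 (adjusted p = 0.00892) and Ly6c1 of endothelium fell by 0.65 (adjusted p = 0.00449), each lost with the covariate (-1.23, -0.77 and -0.64), and Ly6c1 also without A4-4 (28 dpi) or A9-2 (4 dpi). Their part in the steps of the C1q genes was not tested. The steps of the C1q genes also missed the threshold in a fit of only these 2 groups (limma adjusted p between 0.0614 and 0.0636). From 4 to 42 dpi no member was called lower, against 0.0824% of genes, and the C1q genes were the 3 of 7 at an unadjusted p under 0.05, against 6.4%, with steps of -0.57, -0.63 and -0.77.

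**Figure D2:**
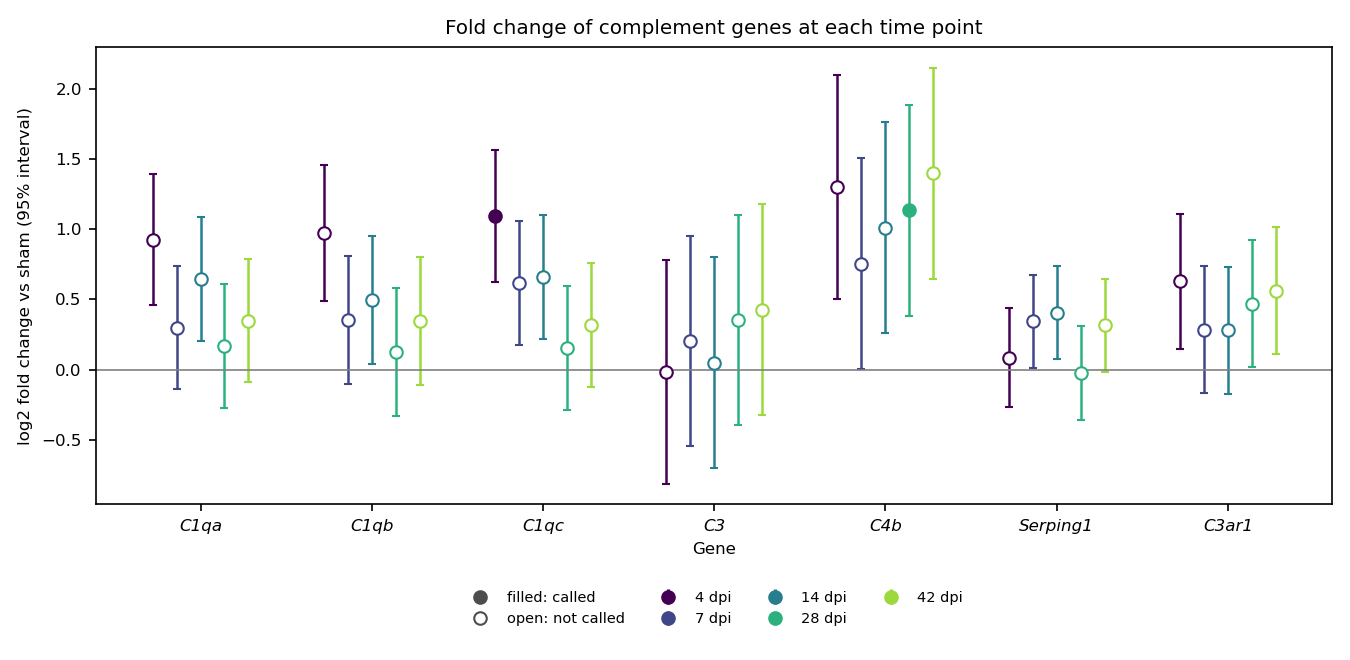
Log2 fold change against sham with its 95% interval for each of the 7 genes at days 4, 7, 14, 28 and 42, with filled points for called genes. C1qc at 4 dpi (1.09) and C4b at 28 dpi (1.14) are the filled points, and the values of C4b lie between 0.75 and 1.40 at all times while those of the C1q genes are lowest at 28 dpi.

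C4b encodes complement C4, the substrate of activated C1, and lies at chr17:34728380-34743882 on the minus strand. Its paralog C4a, not analysed here, holds 48.3% of the 31-base words of C4b transcripts, so the value can include C4a reads and its assignment is uncertain. C4b was 11.7, 6.2, 4.8, 15.1 and 4.3 in sham animals A11-1, A11-4, A12-1, A12-2 and A12-3, a mean of 8.42 ± 4.75 (SD, n = 5). At 4 dpi it was 18.3, 40.6, 13.7 and 13 in A10-1, A10-4, A9-2 and A9-4, and 2 of the 4 lay above the highest sham animal. The log2 fold change was 1.30 (SE 0.390, limma, adjusted p = 0.337). It was 0.75 at 7 dpi, where the animals ranged from 5.7 to 20.3, and 1.01 at 14 dpi, where they ranged from 11.2 to 22.7, neither of which passed (limma adjusted p = 0.852 and 0.387).

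At 28 dpi C4b was 29.3, 9.5, 31.9, 14.3 and 11.1 in A3-1, A3-3, A4-1, A4-3 and A4-4. A3-1 and A4-1 stood above all sham animals, and the other 3 lay within the sham range. C4b was called at this time, with a log2 fold change of 1.14 (SE 0.368), or 2.20-fold (limma, Benjamini-Hochberg adjusted p = 0.0251). The call was lost without A3-1 or A4-1, without sham animal A11-4, A12-1 or A12-3, in a fit of only the 2 groups (adjusted p = 0.0568), and with Rn18s-rs5 as a covariate (log2 fold change 1.68, adjusted p = 0.0567). At 42 dpi C4b was 16.3, 15.6, 35.3, 20.2 and 20.0 in A1-1, A1-2, A1-3, A1-4 and A3-4. All 5 lay above every sham animal, though the lowest, 15.6, was close to the sham maximum of 15.1. The log2 fold change was 1.40 (95% interval from 0.65 to 2.15), larger than at 28 dpi, but it was not called (limma adjusted p = 0.106). Many more genes moved at 28 dpi, so adjusted p values of these 2 times are not on the same footing. C4b was not tested between them.

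Whether C4b moved apart from C1q was tested within animals, as log2 C4b minus log2 C1qa. This difference was -0.44 ± 0.771 (SD, n = 5) in sham animals, -0.06 ± 0.531 (n = 4) at 4 dpi, 0.02 ± 0.734 at 7 dpi and -0.07 ± 0.331 at 14 dpi. It was 0.53 ± 0.624 at 28 dpi and 0.61 ± 0.451 at 42 dpi, with 4 of 5 and 3 of 5 animals above all sham animals. The shift against sham was 0.97 at 28 dpi (exact two-sided permutation test, p = 0.0476, adjusted over 10 tests 0.139) and 1.05 at 42 dpi (exact permutation p = 0.0556, adjusted 0.139), so neither passed after adjustment. The shifts at 4, 7 and 14 dpi were 0.37, 0.45 and 0.36 (adjusted exact permutation p = 0.556 each).

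C3 encodes the component on which all activation routes converge and lies at chr17:57203970-57228136 on the minus strand. It was 2.6, 1.5, 1.7, 9.6 and 2.3 in sham animals A11-1, A11-4, A12-1, A12-2 and A12-3, and the 9.6 of A12-2 was the highest value of all 29 animals. At 4 dpi it was 3.3, 4.9, 1.6 and 2.1, at 28 dpi 6.9, 2.5, 6.3, 2.4 and 2.5, and at 42 dpi 6.1, 4.5, 4.7, 2.4 and 2.9. At 7 dpi it ranged from 1.6 to 5.7, and at 14 dpi from 1.6 to 4.5. In time order its log2 fold changes were -0.02, 0.20, 0.05, 0.35 and 0.43, and none was called, the lowest limma adjusted p being 0.50 at 28 dpi.

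These C3 values rested on 1 sham animal. Without A12-2 the log2 fold changes were 0.39, 0.61, 0.45, 0.76 and 0.83, and still none passed (limma adjusted p from 0.0931 at 28 dpi upward). A12-2 also had the highest C4b value of the sham group, and without it C4b at 28 dpi had a log2 difference from sham of 1.38 (adjusted p = 0.0122 in limma). The animals with the highest C3 at 28 dpi, A3-1 and A4-1, were also those with the highest C4b.

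Serping1 encodes the C1 inhibitor, which blocks the proteases of the C1 complex, and lies at chr2:84765387-84775444 on the minus strand. It was 1.5, 1.7, 1.4, 1.3 and 1.9 in the sham group, 1.9, 1.6, 1.2 and 2.1 at 4 dpi, and then 2.8, 1.9, 1.5, 2.1 and 2.4 at 7 dpi. At 14 dpi it was 2.2, 2.9, 1.7, 2.0 and 2.4, of which 4 lay above every sham animal, at 28 dpi it was 1.5, 1.0, 1.9, 1.6 and 1.7, and at 42 dpi 2.6, 1.5, 2.4, 1.8 and 2.1. In that order the log2 fold changes were 0.08, 0.35, 0.40, -0.02 and 0.31, none of which passed (limma adjusted p of at least 0.368), and that at 28 dpi turned positive under median centring. The largest, at 14 dpi, had a 95% interval from 0.07 to 0.74.

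C3ar1 encodes the receptor of the C3a fragment, carried by microglia and macrophages, and lies at chr6:122847138-122856161 on the minus strand. It was 1.0, 0.9, 0.6, 0.8 and 0.8 in the sham group, 1.3, 2.6, 1.4 and 1.1 at 4 dpi and 1.2, 1.1, 2.6, 1.3 and 1.3 at 42 dpi. Every animal at these 2 times was above every sham animal, by as little as the rounding step of 0.1. Its log2 fold changes were 0.63 (SE 0.235) at 4 dpi and 0.56 (SE 0.222) at 42 dpi, and neither was called (limma adjusted p = 0.650 and 0.223). Its range in between was 0.7 to 2.3 (7 dpi), 0.9 to 1.3 (14 dpi) and 0.9 to 2.3 (28 dpi), and the log2 fold changes were 0.28, 0.28 and 0.47. At 42 dpi A1-3 stood apart for C3ar1 (2.6) and C4b (35.3), and without it the log2 fold changes were 0.39 for C3ar1 and 1.21 for C4b.

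C1q is made by microglia, and markers of microglia were followed beside it. At 4 dpi all 12 markers were higher than sham, 7 of them at an unadjusted p under 0.05 (2.78% of all genes). Of the 12, 2 were called (0.0824% of all genes were called higher), the receptor gene Csf1r (log2 fold change 0.74, limma, adjusted p = 0.00915) and Fcrls (1.05, adjusted p = 0.0223). The call of Csf1r was lost without A10-4 or A9-4 (4 dpi), and that of Fcrls without these or sham animal A11-1, A11-4, A12-1 or A12-3, without the trend and when only the 2 groups were fitted. At 14 dpi 8 of 12 markers were higher at an unadjusted p under 0.05 (6.25% of all genes). At 28 dpi, where the C1q genes overlapped with sham, 7 of 12 were higher, 4 of them at an unadjusted p under 0.05 (18.3%). All 5 animals lay above the sham range for Cx3cr1 and Siglech, as for 6.15% of all genes, and 4 of 5 did for Sall1 and P2ry13. At 42 dpi 8 of 12 were higher, 2 of them at that p (8.4%). The summed level of the list lay between 126 and 144 in the sham group and between 155 and 240 at 4 dpi. Later ranges were 131 to 200 (7 dpi), 145 to 181 (14 dpi), 126 to 168 (28 dpi) and 135 to 156 (42 dpi). At 7 dpi the 2 animals with high C1q, A7-3 and A8-1, also had the highest sums, 200 and 180.0. Across the 29 animals, which share the scaling of their libraries and fall into 6 groups, Pearson's r between the mean log2 value of the C1q genes and that of the markers was 0.867, and 0.771 after group means were subtracted.

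Markers of other cell types moved as well. At 4 dpi 7 of 8 astrocyte markers were higher than sham, 3 of them at an unadjusted p under 0.05 (2.78% of all genes). Of the 8, 1 was called (0.0824% of all genes were called higher), Gfap, the gene of the astrocyte filament protein. Gfap was 183 ± 83.2 (SD, n = 5) in sham animals and 399 ± 134 (n = 4) at 4 dpi, with 3 of 4 animals above all sham animals (log2 fold change 1.18, limma, adjusted p = 0.0480), and this call held in 10 of 29 fits that left out 1 animal. The summed astrocyte level was 2521 to 3061 in the sham group and 2767 to 3366 at 4 dpi. At 28 dpi 3 of 8 astrocyte markers were higher, with 2 higher and 3 lower at an unadjusted p under 0.05 (18.3% and 20.2% of all genes) and a median log2 fold change of -0.09. All 5 animals lay below the sham range for Aqp4 and Aldh1l1 and above it for Sox9 and Slc1a2. They lay above it for 6.15% of all genes, and the share below it is not given here. Sox9 was called (0.70, limma, adjusted p = 0.00139). Of 3 blood cell, 5 red cell and 7 fibroblast markers, 2, 2 and 4 were higher at 28 dpi, with medians of 0.25, -0.10 and 0.12, and 1 of each list was called (Ms4a1, 0.83, Alas2, 0.91, and Col1a1, 0.61), where 4.15% of all genes were called higher. With Rn18s-rs5 as a covariate these 4 calls were lost at log2 fold changes of 0.69 (Sox9), 0.60 (Ms4a1), 0.78 (Alas2) and 0.48 (Col1a1). Col1a1 was called in 22 of 29 fits that left out 1 animal, and not with a pseudocount of 1 or quantile normalization.

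Oligodendrocyte markers were lower at several times. At 4 dpi all 6 lay below sham, 3 of them at an unadjusted p under 0.05 (2.37% of all genes), with a median log2 fold change of -0.24. All 6 were lower than sham at an unadjusted p under 0.05 at 28 dpi (20.2% of all genes) and at 42 dpi (6.35%), and limma called 0 of them at any of these times. Their summed level was 6223 to 9261 in the sham group, 4961 to 7713 at 4 dpi, 4476 to 6587 at 28 dpi and 5185 to 6265 at 42 dpi. The part of these cell types in the values of C4b and the C1q genes was not tested.

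**Figure D3:**
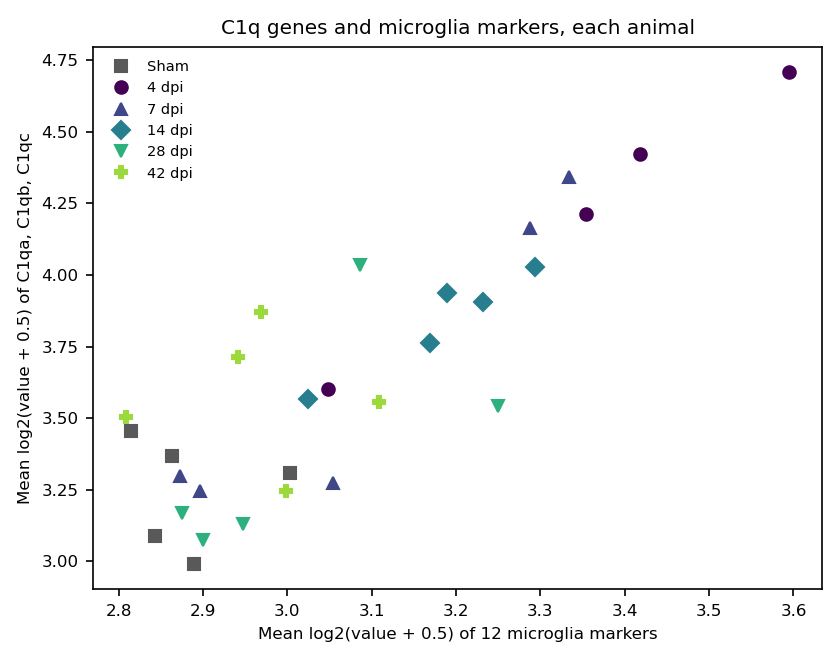
Mean log2(value + 0.5) of C1qa, C1qb and C1qc against that of 12 microglia markers in each of 29 animals, by group. The points lie along 1 rising band (Pearson's r = 0.867), with 3 of the 4 animals of 4 dpi and A7-3 and A8-1 of 7 dpi at its upper end.

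C1qa was also set against these markers within each animal, as log2 C1qa minus the mean log2 marker value. The difference was 0.55 ± 0.130 (SD, n = 5) in sham animals and 1.00 ± 0.195 (n = 4) at 4 dpi, where 4 of 4 animals lay above every sham animal, a shift of 0.45 (exact two-sided permutation test, p = 0.0159, the smallest that 4 against 5 animals can give, and 0.0794 adjusted over 10 tests). At 14 dpi it was 0.90 ± 0.129, with 4 of 5 animals above every sham animal and a shift of 0.34 (exact permutation p = 0.0159, adjusted 0.0794). The shifts at 7, 28 and 42 dpi were 0.09, 0.04 and 0.27 (adjusted exact permutation p = 0.758, 0.833 and 0.222). No shift passed after adjustment. Whether C1q changed per cell or with the number of microglia was not tested.

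**Figure D4:**
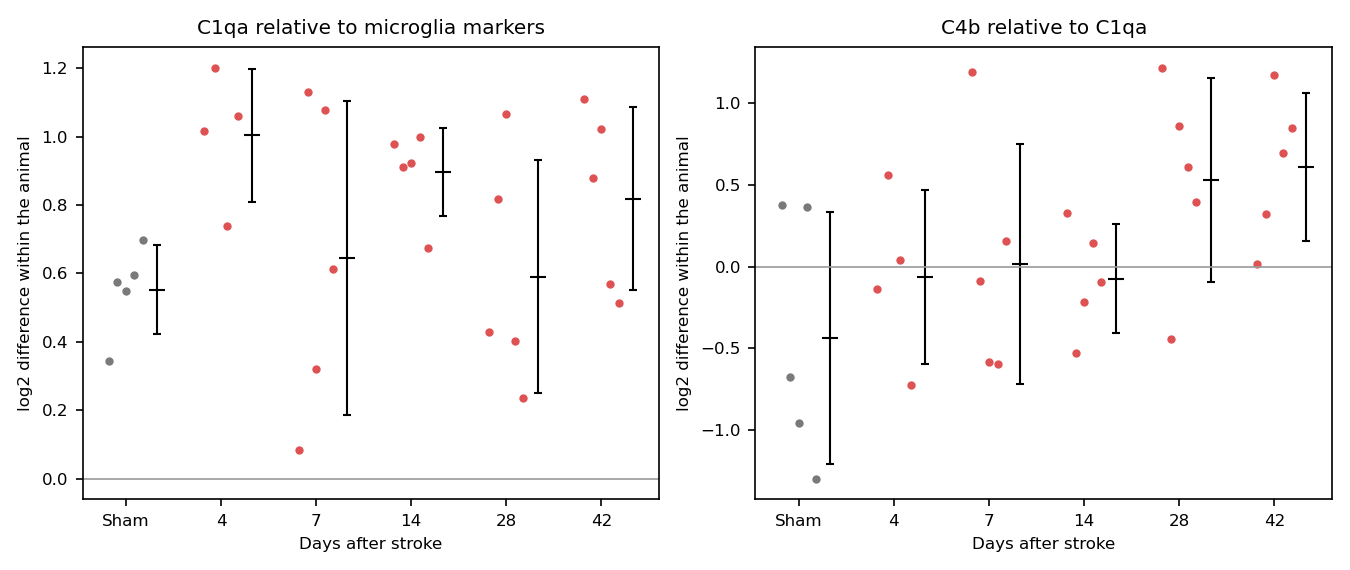
Log2 difference within each animal between C1qa and the mean of the microglia markers (left) and between C4b and C1qa (right), by group with mean and SD (n = 4 at 4 dpi, n = 5 otherwise). Left, the animals of 4 dpi all lie above the sham animals, with means of 1.00 and 0.55, and right, the means are highest at 28 dpi (0.53) and 42 dpi (0.61).

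The genes most like each member over the 29 animals were named by Pearson's r of log2 values, as a description of values that share library scaling. C1qa was most like Tyrobp, an adaptor of microglial receptors (0.889), C1qc (0.885) and Ctss, which encodes the lysosomal protease cathepsin S (0.868). C1qb was most like C1qc (0.907), Tyrobp (0.894) and Ctss (0.884), and C1qc was like C1qb (0.907) and the Fc receptor gene Fcgr3 (0.897). The values of the other members were lower.

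C4b was most like AU020206 (0.760), C3ar1 (0.723) and A2m, a protease inhibitor (0.714). C3 was most like Ctnnal1 (0.659), Csf1, which encodes the growth factor of microglia (0.650), and C4b (0.644). C3ar1 was most like Mpeg1, a macrophage gene (0.766), Fcgr2b, an inhibitory Fc receptor (0.724), and C4b. Serping1 was most like Cmpk2 (0.721), Mtmr11 (0.672) and Trappc1 (0.659), and its r with the other members was at most 0.278. Between C1q genes r was 0.849 to 0.907, whereas C3 had an r of 0.192 to 0.207 with them. After group means were subtracted these were 0.757 to 0.867 and 0.363 to 0.400.

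Of 59 further genes of the complement system, 35 were measured. At 4 dpi 5 of the 35 were higher than sham at an unadjusted p under 0.05, against 2.78% of all genes, and none was called. At 28 dpi 10 were higher, against 18.3% of all genes, and 3 lower, against 20.2%. Of the 35, 2 were called at 28 dpi, both higher, near the share of all genes (4.15%). At 7, 14 and 42 dpi 2, 1 and 5 were higher, against 2.22%, 6.25% and 8.4%, and 2, 1 and 1 were lower, against 3.61%, 5.36% and 6.35%, and none was called. From 4 to 28 dpi 3 of the 35 were called higher, against 2.89% of all genes. With Rn18s-rs5 as a covariate 0 genes of the whole table were called at 28 dpi or for the step from 4 to 28 dpi, where 789 and 738 were called without it, in either direction. The median log2 fold change of these genes lay between -0.07 and 0.09, nearer to that of all genes than the median of the 7 members was.

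The initiating and alternative routes were sparsely measured. Of 15 genes of classical and lectin initiation 4 had values, of 3 alternative pathway genes 2, and of 7 terminal pathway genes 1, C8g. None of these was called. C2, which forms the C3 convertase with C4, was 0.900 ± 0.339 in sham animals and 1.44 ± 0.537 at 28 dpi (log2 fold change 0.44, limma, adjusted p = 0.129). Cfb, the alternative pathway's counterpart of C2, was 1.44 ± 0.619 and 2.22 ± 0.487 (log2 fold change 0.53, limma, adjusted p = 0.0519).

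Of 9 measured receptors, 5 were higher than sham at 4 dpi, 4 of them at an unadjusted p under 0.05 (Itgam, Itgax, Itgb2 and Lrp1), against 2.78% of all genes. Limma called 0 of them, against 0.0824% of all genes called higher. For 1.09% of all genes every stroke animal at 4 dpi lay above every sham animal. C5ar2, Cr2, Cd93 and Calr had log2 fold changes between -0.45 and -0.08. Itgb2, the shared chain of the complement receptors CR3 and CR4, ranged from 1.6 to 2.1 in sham animals and from 2.5 to 5.2 at 4 dpi without overlap (log2 fold change 0.81, limma, adjusted p = 0.332). Itgam, the other chain of CR3, ranged from 7.0 to 9.3 in sham animals and from 9.8 to 12.3 at 4 dpi, also without overlap (0.37, adjusted p = 0.667), and 0.02 at 7 dpi. Itgax, the other chain of CR4, was between 0 and 0.1 in sham animals, between 0.5 and 1.3 at 4 dpi, and no higher than 2.5 later, with 1 or more animals listed at 0 at every later time.

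Lrp1, a large endocytic receptor that also binds C1q-coated material, was called at 28 dpi, where it ranged from 568 to 905 against 323 to 521 in sham animals (higher by 0.74 on the log2 scale, limma with Benjamini-Hochberg adjusted p = 0.00139). With Rn18s-rs5 as a covariate the difference was 0.65 and the call was lost (limma adjusted p = 0.0563). Calreticulin (Calr), a C1q-binding partner of Lrp1, differed from sham at 28 dpi by -0.36 (adjusted p = 0.00703), under the fold limit. Cr2 and C5ar2, which bind C3 fragments and C5a, rose from 4 to 28 dpi by 0.60 (limma adjusted p = 0.0249) and 1.60 (adjusted p = 0.0250), both named after their values were seen. With the covariate these steps were 0.70 and 0.78 and no longer passed (limma adjusted p = 0.194 and 0.472). Each was also lost without A3-3 (28 dpi) or A9-4 (4 dpi), that of Cr2 without A4-1 (28 dpi), with a pseudocount of 1, with quantile normalization and when only these 2 groups were fitted, and that of C5ar2 without A10-1 (4 dpi). Against sham at 28 dpi they had log2 fold changes of 0.53 (adjusted p = 0.0283, under the fold limit) and 1.14 (adjusted p = 0.0669).

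Of 8 measured regulators of complement, limma called 0 against sham at any time point. At an unadjusted p under 0.05, 1 regulator was higher on day 4 (2.78% of all genes), 1 on day 7 (2.22%) and 2 on day 42 (8.4%). Day 28 had 1 higher (18.3%) and 1 lower (20.2%), and day 14 had none.

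All 11 neuronal complement regulators and C1q partners were measured. Csmd2, a membrane protein with complement control domains, was called at 28 dpi, with 46.7 to 68.0 in stroke animals and 30.2 to 41.8 in sham animals (higher by 0.66 on the log2 scale, limma with Benjamini-Hochberg adjusted p = 0.00125). The call was lost with Rn18s-rs5 as a covariate (log2 fold change 0.56, limma adjusted p = 0.0547) and without sham animal A12-1. From 4 to 28 dpi Csmd2 rose by 0.65 (limma adjusted p = 0.00318), again not with the covariate (0.55, adjusted p = 0.153) nor without A10-1. Sez6, a neuronal protein with such domains, had a log2 fold change of 0.46 at 28 dpi (adjusted p = 0.0117), under the fold limit, and its relative Sez6l one of 0.29 (adjusted p = 0.008). Nptx2, a neuronal pentraxin secreted at synapses, was 0.980 ± 0.349 in sham animals and 0.340 ± 0.195 at 7 dpi, with a log2 fold change of -0.81 at 7 dpi and -0.70 at 42 dpi, neither of which passed (limma adjusted p = 0.791 and 0.271).

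**Figure D5:**
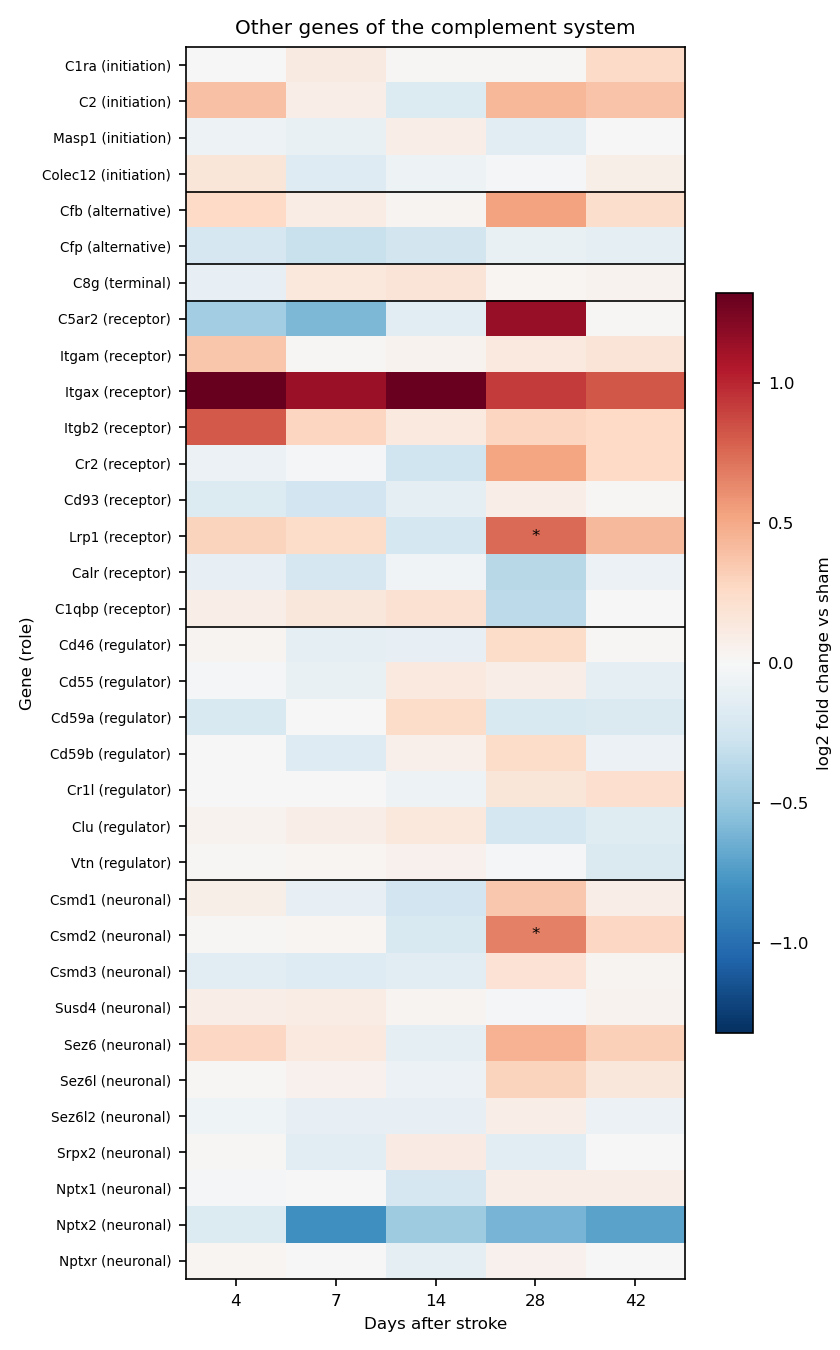
Log2 fold change against sham (colour) of 34 other measured complement genes at days 4, 7, 14, 28 and 42, grouped by role, with an asterisk for called genes. The asterisks stand at 28 dpi for Lrp1 (0.74) and Csmd2 (0.66), and the row of Itgax rests on sham values between 0 and 0.1.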

How the data were processed

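The deposited score of a gene is described as CPM, although totals per animal differ more than plain CPM would: the authors quantified reads on mm10 with SALMON and Tximport, dropped low genes, normalized with edgeR and rounded to 0.1 (edgeR 3.14.0 and R 3.4.1 per the labels). Values are not counts, so no count model was run. The authors' fold changes and p values, held in the same table, were not used. In its own testing the paper placed C1qa to C1qc and C4b in a cluster of genes upregulated early after stroke. Groups came from the sample labels. Log2(value + 0.5) was fitted with limma 3.58.1 (trend, 1 mean per group, 29 animals, R 4.3.3), with adjustment over 16995 genes. Within-animal differences were compared by exact two-sided permutation tests. Scripts were tested on simulated data. Gene positions are those of the deposited table, whose start positions matched GENCODE M21 for all 7 genes. Named were all members, other complement genes called at a time point or over all stroke animals, the 12 with the smallest p over all stroke animals, and for each member the 3 genes most like it, apart from results not reported here. Members and lists were chosen with earlier results of these data known. Nothing states that animals were pooled, and p values measure the spread between these animals.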

Additional observations from a re-analysis of the deposited data

Results flagged for a closer look

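In groups of 4 or 5 animals, the highest or lowest value stood far from the others in 3 of 42 gene and group combinations, where chance gives about 1 in 20. C3 was 9.6 in sham animal A12-2 and 2.6 in the next. At 42 dpi animal A1-3 had a C4b value of 35.3, with 20.2 in the next animal, and a C3ar1 value of 2.6, with 1.3 in the next.

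The change from 4 to 28 dpi, tested as a step in the limma fit, differed from 0 for the C1q genes, at -0.76 for C1qa (adjusted p = 0.0233), -0.85 for C1qb (adjusted p = 0.0165) and -0.94 for C1qc (adjusted p = 0.00958). Rn18s-rs5 ranged from 18295 to 114026 at 4 dpi and from 44755 to 779160 at 28 dpi, and the steps did not pass with it as a covariate.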

How the results depend on the processing

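Of 2177 recomputed fold changes of members, 2131 kept their side of the threshold, 43 lost the call, 3 gained one and 0 reversed a call. They cover 56 results, most of them never called, and many refits left out an animal outside the comparison. The number kept is therefore no measure of how firm the calls are. Only the calls of C1qc at 4 dpi, C4b at 28 dpi and the C1q steps from 4 to 28 dpi could be lost. The number of members called at 4 dpi (1) was 0 with a pseudocount of 0.1, with values scaled to the same sum without the 10 most abundant genes, without the trend and when only the 2 groups were fitted, and lay between 0 and 3 when 1 animal was left out, with 3 only without A9-2 (4 dpi). At 28 dpi (1) it was 0 with Rn18s-rs5 as a covariate and when only the 2 groups were fitted, and 0 to 1 when 1 animal was left out. For the step from 4 to 28 dpi (3) it was 0 under the same 2 settings, and 1 to 3 when 1 animal was left out, with 1 without A10-1, A10-4 or A9-4 (4 dpi). For the step to 42 dpi (0) it was 0 to 1, with 1 (C1qc) without A9-2. The number of members above the whole sham range at 7 dpi (0) was 0 to 1, with 1 without sham animal A12-1. The causes were not tested. No paired analysis was possible because the groups share no replicate numbers. The number after A in an animal's name, whose meaning is not given, marks 11 units, of which 10 lie within 1 group, and A3 is shared by 28 and 42 dpi. A random block by this unit gave a consensus correlation of -0.0441. Depth is unknown, values near 1 CPM are limited by the rounding step of 0.1, and 4 or 5 animals per group limit every test.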
